A study of Mus musculus with 6 samples.

Results

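The Twist, Snail, Zeb and Prrx genes encode transcription factors that are best known for driving cells from an epithelial or endothelial towards a mesenchymal state. All 8 genes named for this family group, Twist1, Twist2, Snai1, Snai2, Zeb1, Zeb2, Prrx1 and Prrx2, were found by their symbol among the 24063 symbols of the expression tables, and the counts of a symbol were summed in each of 6 libraries. The RNA came from lungs of male C57BL6 mice from which cells had been isolated with magnetic beads against CD31, an endothelial surface protein. Sham-operated mice gave 3 libraries and mice at 7 days after unilateral pneumonectomy (PNX), the removal of 1 lung, gave the other 3. Each library was pooled from 2 mice, the labels name no transgene or drug in either group, and the age was 8 weeks in the labels and older in the study's methods.

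Replicates 1 and 2 of both groups are marked in the labels as re-used from an earlier record and are called the earlier deposit here, and replicate 3 the later deposit. The total count was 65763553 to 81282871 in the 4 libraries of the earlier deposit, and 33374216 (sham) and 29526989 (PNX) in those of the later. Replicates 1 and 2 of a group differed by little more than counting error (chi-square per degree of freedom 1.75 in sham and 1.57 in PNX), against 67.9 to 86.4 for pairs with replicate 3, so each such pair was pooled into a single sample (n = 2 in sham and n = 2 in PNX). The label of the cells was checked on 10 endothelial marker genes. Pecam1, which encodes CD31, stood at 2020 to 2523 CPM (counts scaled by library size) over the 4 samples. The summed level of the 10 endothelial markers was 9872 to 11960 CPM in sham and 8906 to 9721 CPM in PNX. Markers of other cells were also high. The sum of 10 lung epithelial markers was 9782 to 10820 CPM in sham and 3076 to 6970 CPM in PNX. Such sums may count the same reads on several transcripts of a gene and do not give shares of cells. A lower level of a gene in fewer cells and a lower level per cell cannot be told apart in such bulk RNA.

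TWIST1 and TWIST2 are basic helix-loop-helix factors that pair with E proteins and bind the E-box, a short DNA word written CANNTG. SNAI1, SNAI2 (Slug), ZEB1 and ZEB2 are zinc finger repressors that bind the E-box variant CAGGTG, among others at the gene of E-cadherin. PRRX1 and PRRX2 are paired-type homeodomain factors of embryonic and fibroblast mesenchyme. In endothelial cells the Snail and Zeb factors are known from heart valve formation and sprouting, and Twist1 from the growth of lung vessels. The microRNAs of the miR-200 family and the Zeb factors are known to repress each other.

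The mature miR-200 sequences are shown because their seeds, bases 2 to 8 printed in capitals, separate the Zeb genes from the rest of the group. They are from RefSeq (GRCm38.p6).
mmu-miR-200b-3p: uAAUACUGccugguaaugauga
mmu-miR-200c-3p: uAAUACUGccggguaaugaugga
mmu-miR-429-3p: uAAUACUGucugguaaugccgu
mmu-miR-200a-3p: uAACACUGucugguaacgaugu
mmu-miR-141-3p: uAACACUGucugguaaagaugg
The first 3 share the seed AAUACUG and the other 2 the seed AACACUG. The DNA word complementary to the first seed, CAGTATT, occurs in 13.9% of the longest annotated 3′ untranslated regions of 21166 mouse genes, and that of the second, CAGTGTT, in 17.9%. At least 3 matches occur in 0.454% and 0.879% of them. Zeb1 held 5 matches to the first seed and 4 to the second in 2401 bases, and Zeb2 likewise 5 and 4 in 4941 bases. Snai2 held 1 of each in 1089 bases, and Snai1 held 1 match, to the first seed, in 731 bases. No match was found in Twist1 (700 bases), Twist2 (1885 bases), Prrx1 (4891 bases) or Prrx2 (321 bases). These matches describe the letters of the annotated transcripts, and the mature miRNAs were not measured here.

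The promoters of Twist1 and Snai1 are shown because Twist1 had the largest fold change of the members and Snai1 a PNX to sham ratio on either side of 1 in the 2 deposits. The ratio of Snai2 was on either side of 1 too, but within counting error of 1 in both deposits. The 2 stretches printed are the 250 bases before the RefSeq transcript start (GRCm38.p6, plus strand). Capitals mark E-boxes (CANNTG) and CCAAT boxes (CCAAT, either strand).
Twist1, chr12:33957421-33957670: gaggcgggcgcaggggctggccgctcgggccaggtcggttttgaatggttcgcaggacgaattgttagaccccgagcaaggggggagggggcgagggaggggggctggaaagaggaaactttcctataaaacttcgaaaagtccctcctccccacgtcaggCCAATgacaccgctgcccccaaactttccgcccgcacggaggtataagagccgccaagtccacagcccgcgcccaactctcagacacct
Snai1, chr2:167537945-167538194: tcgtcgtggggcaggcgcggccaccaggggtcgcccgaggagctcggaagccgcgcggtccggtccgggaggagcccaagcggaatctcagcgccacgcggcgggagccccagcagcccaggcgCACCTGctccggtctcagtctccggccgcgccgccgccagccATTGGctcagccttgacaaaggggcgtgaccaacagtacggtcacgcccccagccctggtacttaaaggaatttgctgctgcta
The Snai1 stretch holds 1 E-box, CACCTG, which read on the other strand is the Snail and Zeb word CAGGTG, and the Twist1 stretch holds none. Each holds 1 CCAAT box. Over the 32851 RefSeq promoter windows of 300 bases (250 before to 50 after the start) an E-box is present in 72.3%, CAGGTG in 20.2% and a CCAAT box in 37.4%. Twist2, Prrx1, Prrx2 and Zeb2 also have windows, and neither they nor that of Twist1 holds an E-box. The GC content is 66.0% for the Twist1 window and 70.0% for the Snai1 window, against a median of 52.7% over all windows.

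The first question was how abundant each factor was in the isolated cells. Levels of different genes were compared per transcript length, in the TPM (reads per transcript length, scaled by library) that the authors deposited, as mean ± SD over n = 2 samples. In sham the Zeb genes were the highest, with Zeb2 at 64.9 ± 8.15 TPM summed over its transcripts and Zeb1 at 48.8 ± 7.44 TPM. The order of these neighbours is not settled, since Zeb2 has 2 transcripts with nearly the same count in each library, on both of which the same reads may have been counted, and its transcript with the highest count alone gave 32.3 ± 4.11 TPM. Snai2 (8.60 ± 2.85 TPM), Snai1 (8.58 ± 1.14 TPM) and Prrx1 (6.59 ± 0.438 TPM summed, 2.37 ± 0.321 TPM for 1 transcript) followed. Snai2 and Snai1 did not differ beyond their spread. Twist2 (0.710 ± 0.286 TPM) and Prrx2 (0.482 ± 0.0598 TPM) were lower and did not differ beyond their spread either. Twist1 was the lowest, at 0.0673 ± 0.0309 TPM.

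After PNX the order of the summed TPM changed below the Zeb genes. Twist1 stood at 1.27 ± 0.200 TPM, above Twist2 at 0.998 ± 0.403 TPM by less than their spread. Prrx2 stood at 2.78 ± 0.436 TPM, above both Twist genes, while Snai1 stood at 11.7 ± 5.29 TPM and Snai2 at 8.72 ± 3.12 TPM. Prrx1 summed over its transcripts was above the means of both Snail genes, at 13.6 ± 1.31 TPM, but its transcript with the highest count alone was below them, at 5.10 ± 0.533 TPM, so its place is not settled. Zeb2 (67.0 ± 6.44 TPM) and Zeb1 (38.5 ± 4.13 TPM) stayed the highest. Even after PNX the TPM of Twist1 lay under those of Snai1, Snai2, Zeb1 and Zeb2 in every library. These TPM values are a description with no test, because a two-sided exact permutation test of 2 against 2 samples cannot go below p = 0.333.

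**Figure D1:**
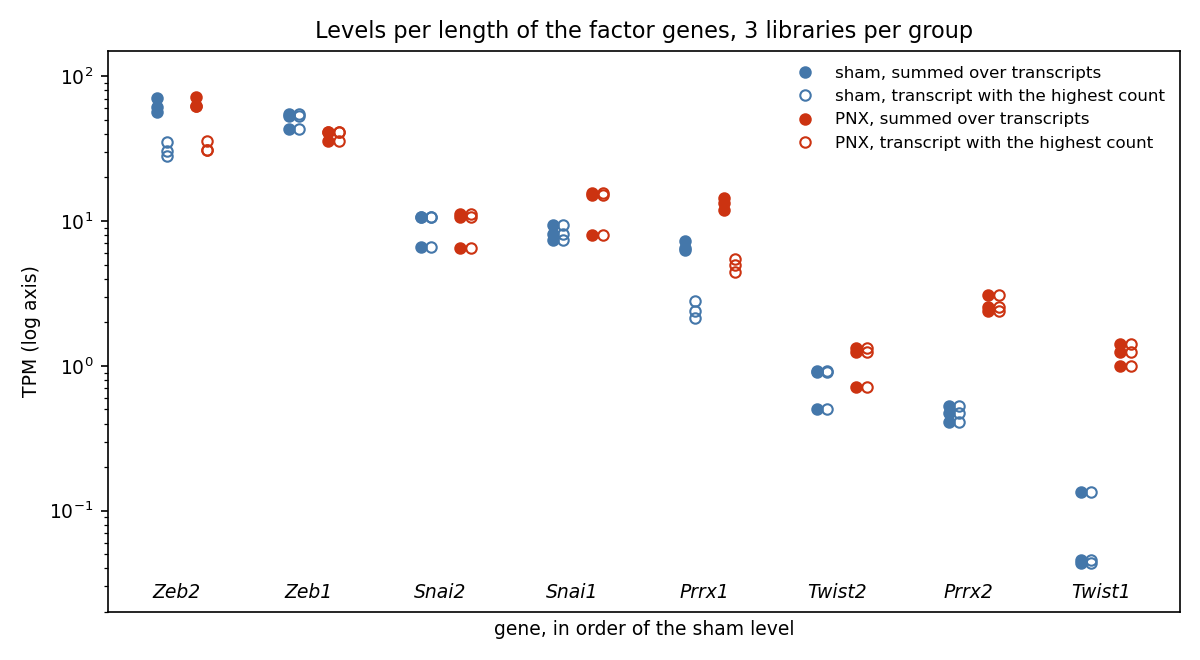
TPM of each gene (vertical log axis) in the 3 sham and 3 PNX libraries, filled for the sum over transcripts and open for the transcript with the highest count. Zeb2 and Zeb1 lie highest and Twist1 lowest in sham, and the Twist1 libraries rise from 0.0433–0.135 TPM in sham to 1.00–1.41 TPM in PNX.

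PNX and sham were then compared with edgeR's quasi-likelihood test over 16598 genes, of which all 8 members were part, where a call needed both a Benjamini-Hochberg adjusted p below 0.01 and a log2 fold change beyond 1 in size. In the fit of 4 samples without a block 0 members passed, as did 0.0% of all genes. In that fit 2076 genes had an unadjusted p under 0.05, 3 of them members, limma-voom called 0 genes and DESeq2 called 587 (3.43%), again with 3 members. With the deposit as a replicate block, edgeR called 849 genes (5.12%). The members called were Twist1, Prrx1 and Prrx2, all higher after PNX, where 3.89% of all genes were called higher. The same 3 were called with the 6 libraries as separate replicates (2.51% of 16263 genes called, 2.28% higher). That fit treats replicates 1 and 2 as independent although they differ by little more than counting error. Its p-values, here and below, therefore partly measure spread that may be technical. In 3 members every PNX library lay above every sham library and in 1, Zeb1, below it, which was so for 18.8% and 17.9% of all genes.

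**Figure D2:**
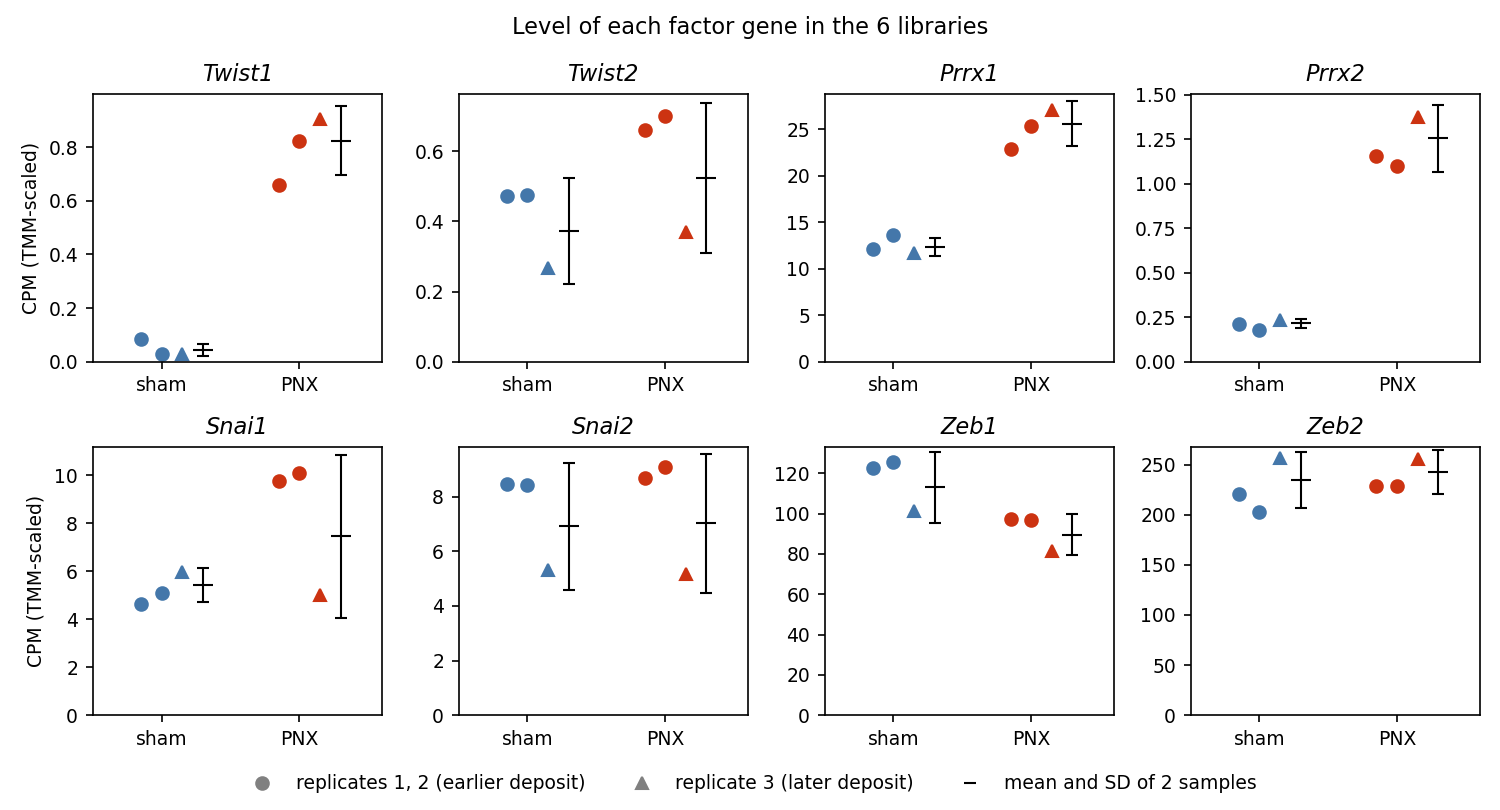
CPM of each of the 8 genes on TMM-scaled library sizes (vertical axes start at 0) in each library, circles for replicates 1 and 2 and triangles for replicate 3, with the mean and SD over the 2 samples of a group. Twist1, Prrx1 and Prrx2 lie higher in every PNX library than in every sham library, Zeb1 lies lower, and the replicate 3 libraries of Snai1, Snai2 and Twist2 stand apart from replicates 1 and 2.

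Twist1 (chromosome 12, positions 33957671 to 33959829, GRCm38, plus strand, 2 exons) was close to absent in sham. Replicates 1, 2 and 3 held 7, 2 and 1 counts of it after sham surgery and 49, 54 and 27 after PNX, which is 0.0869, 0.0279 and 0.0297 CPM against 0.659, 0.823 and 0.905 CPM. All PNX libraries lay above all sham libraries. Twist1 rose in the fit with the replicate block (log2 fold change 3.84 ± 0.47 SE, adjusted p = 0.00181) and, as 6 libraries, by 3.85 ± 0.42 (adjusted p = 0.00451). Unblocked, the 4 samples gave 3.94 ± 0.52 with an adjusted p of 0.0873, which is not past the threshold. Within the deposits the PNX to sham ratio was 12.2 (exact 95% interval 6.20 to 27.5) and 31.1 (5.12 to 1272), intervals that cover counting error only.

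The 10 sham counts limit what can be said of the size of this change. Both sham samples of Twist1 lay under the minimum of 0.115 CPM by which genes were kept for the test, and both PNX samples above it. Twist1 therefore entered the test only through the group in which it was high, and its call is given as a description of that difference, whereas the other 7 members passed the minimum in all 4 samples. Without sham replicate 1, which holds 7 of the 10 counts, the blocked log2 fold change was 4.71 ± 0.52, and without sham replicate 2 it was 3.50 ± 0.52.

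Twist2 (chromosome 1, positions 91801461 to 91848028, plus strand), the nearest relative of Twist1, had 38, 34 and 9 counts in sham and 49, 46 and 11 in PNX. These are 0.472, 0.475 and 0.267 CPM against 0.659, 0.701 and 0.369 CPM. The groups overlapped, since PNX replicate 3 lay under sham replicates 1 and 2, while within each deposit PNX was the higher. The ratio was 1.41 in both deposits, with intervals of 1.03 to 1.94 in the earlier and 0.530 to 3.84 in the later. Its log2 fold change of 0.49 ± 0.34 with the replicate block did not pass the test (adjusted p = 0.349), and exons of an annotated antisense transcript, Gm29100, overlap those of Twist2.

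Prrx2 (chromosome 2, positions 30834972 to 30881251, plus strand, 4 exons) was the other low gene with a large difference. It had 17, 13 and 8 counts in sham and 86, 72 and 41 in PNX, or 0.211, 0.181 and 0.238 CPM against 1.16, 1.10 and 1.38 CPM. No PNX library came near a sham library. The log2 fold change was 2.51 ± 0.33 with the replicate block (adjusted p = 0.00231), 2.53 ± 0.22 with 6 libraries (adjusted p = 0.00235) and 2.54 ± 0.39 in the unblocked 4 samples (adjusted p = 0.106). The ratio was 5.63 (3.79 to 8.62) in the earlier deposit against 5.90 (2.73 to 14.6) in the later.

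Prrx1 (chromosome 1, positions 163245119 to 163313710, minus strand) was more abundant than Prrx2, and its change lay near the fold threshold. Summed over its 3 transcripts it had 975, 978 and 396 counts in sham and 1698, 1664 and 806 in PNX, which is 12.1, 13.7 and 11.8 CPM against 22.9, 25.4 and 27.0 CPM. Every PNX library again lay above every sham library. Its log2 fold change was 1.04 ± 0.12 with the replicate block (adjusted p = 0.00117), 1.00 ± 0.10 with 6 libraries (adjusted p = 0.00349) and 1.05 ± 0.16 in the unblocked 4 samples (adjusted p = 0.107). It fell just short of the fold threshold by limma-voom with the block (0.99, adjusted p = 0.000793) and, in the 6 libraries, by edgeR with the block (0.99, adjusted p = 0.000925) and by DESeq2 (0.995, adjusted p = 8.67e-14). Over all 40 settings that tested it, Prrx1 passed both thresholds in 12. Twist1 and Prrx2 each passed both in 18 of the 39 settings that tested them.

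The 3 transcripts of Prrx1 were all higher after PNX. The first had 378, 389 and 144 counts in sham and 662, 657 and 320 in PNX, and the second was within 3 counts of it in every library. The third had 216, 197 and 108 counts in sham and 371, 350 and 166 in PNX. Because reads of shared exons appear to be counted on each transcript, the summed count is not a number of fragments and its counting interval is too narrow. With only the transcript of the highest count, the blocked log2 fold change of Prrx1 was 1.09 (adjusted p = 0.00474).

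**Figure D3:**
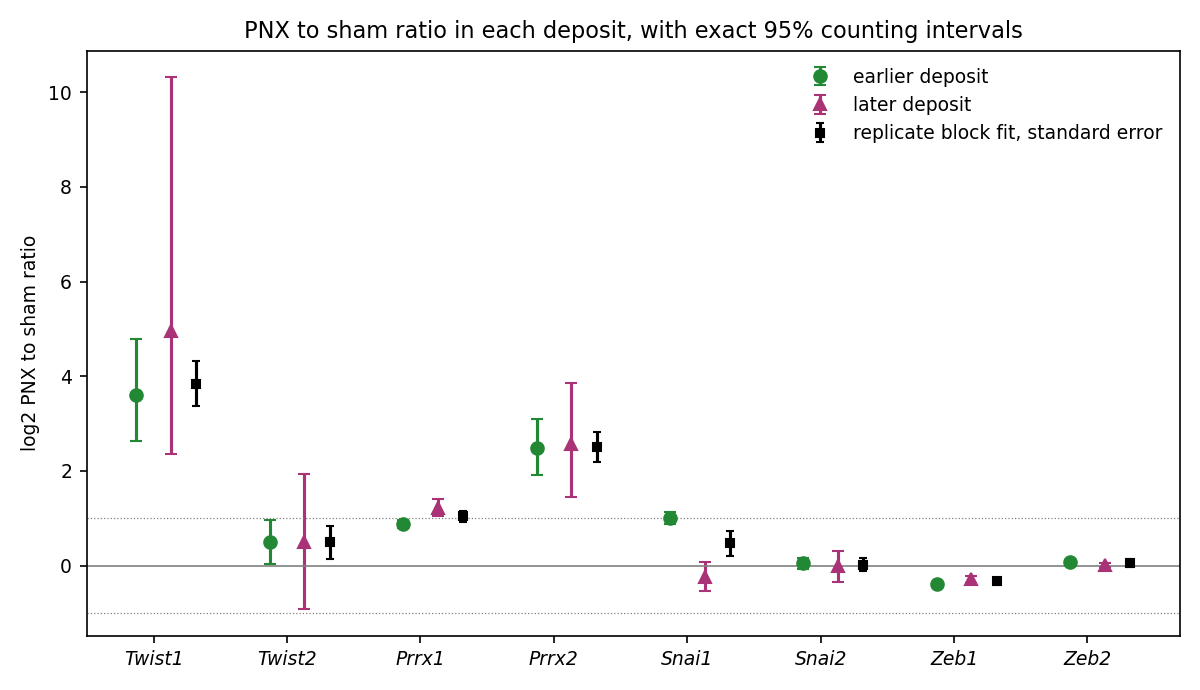
Log2 ratio of PNX to sham for each gene in the earlier (circles) and the later deposit (triangles), with exact 95% counting intervals, beside the log2 fold change and standard error of the replicate block fit (squares); dotted lines mark a log2 fold change of 1 and -1. Twist1, Prrx1 and Prrx2 lie above 0 in both deposits, Zeb1 lies below 0 in both, and Snai1 lies on either side of 0. Snai2 also lies on either side of 0, within counting error of it in both deposits.

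Snai1 (chromosome 2, positions 167538195 to 167542814, plus strand, 3 exons) behaved differently in the 2 deposits. It had 373, 366 and 201 counts in sham and 724, 661 and 149 in PNX, or 4.63, 5.11 and 5.97 CPM against 9.74, 10.1 and 4.996 CPM. PNX replicates 1 and 2 were higher than all sham libraries, whereas PNX replicate 3 lay within the sham range. The PNX to sham ratio was 2.00 (1.83 to 2.19) in the earlier deposit and 0.853 (0.686 to 1.06) in the later. Over both, the log2 fold change of 0.47 ± 0.27 with the replicate block (adjusted p = 0.258) and of 0.48 ± 0.37 without it (adjusted p = 0.696) did not pass the test.

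Without replicate 3 of each group the answer for Snai1 was another one. With replicates 1 and 2 alone as separate libraries, its log2 fold change was 1.03 (edgeR, adjusted p = 4.62e-09) and it passed both thresholds. Those libraries differ by little more than counting error, so this p measures spread that may be technical. Of the 16322 genes tested in that fit, 1203 passed both thresholds, 946 of them higher after PNX. Twist1 and Prrx2 passed in these libraries too, Prrx1 did not (log2 fold change 0.91), and the difference between deposits itself was not tested.

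Snai2 (chromosome 16, positions 14705852 to 14709385, plus strand, 3 exons) had 681, 603 and 179 counts in sham and 646, 595 and 154 in PNX, or 8.45, 8.42 and 5.32 CPM against 8.69, 9.07 and 5.16 CPM. The deposits differed by more than the groups did. The log2 fold change was 0.02 ± 0.13 with the replicate block (adjusted p = 0.931), and the ratio over all libraries was 1.03 with an interval of 0.959 to 1.11.

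Zeb1 (chromosome 18) was the member that lay lower after PNX. It had 9865, 8976 and 3411 counts in sham and 7244, 6343 and 2427 in PNX, or 122, 125 and 101 CPM against 97.5, 96.7 and 81.4 CPM. All PNX libraries lay below all sham libraries. The ratio was 0.771 (0.754 to 0.788) in the earlier deposit against 0.819 (0.777 to 0.863) in the later. With the replicate block the log2 fold change was -0.33 ± 0.08 (adjusted p = 0.0255), and without it -0.34 ± 0.18 (adjusted p = 0.546), neither past the thresholds. Both intervals lie below 1, but they cover counting error only.

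Zeb2 (chromosome 2, positions 44983632 to 45117395, minus strand) had 17764, 14526 and 8649 counts in sham and 16994, 14993 and 7626 in PNX, summed over 2 transcripts, or 220, 203 and 257 CPM against 229, 229 and 256 CPM. The groups overlapped. Its log2 fold change was 0.05 ± 0.09 with the replicate block (adjusted p = 0.716), and the ratio was 1.06 in the earlier deposit against 1.02 in the later. Exons of the antisense gene Zeb2os overlap those of Zeb2, and whether the counting used the strand is not given in the sources used here. Zeb1 and Zeb2 share the largest numbers of miR-200 seed matches printed above. Their log2 fold changes with the replicate block were -0.33 ± 0.08 and 0.05 ± 0.09, and a test between them was not made.

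The genes whose levels ran most like those of each member were named as the 3 with the smallest root mean square (RMS) difference in log2 CPM, centred on each gene, over the 4 samples. Nearest to Twist1 were Pdzrn4 (RMS 0.105), Krt14 (0.162), a keratin of basal epithelial cells, and Lrrc15 (0.186), a membrane protein of activated fibroblasts. For Prrx2 they were Fignl1 (0.0375), Gprin1 (0.0598) and Adamts12 (0.0767), and for Prrx1 they included Rab3il1 (0.0477) and Stmn1 (0.0529). Pdzrn4, Lrrc15 and Gprin1 lay under the minimum of 0.115 CPM in both sham samples. Like Twist1, they entered only through PNX, and their likeness rests in part on values near the floor. Snai1 had Sp6 (0.0422), Cd209e (0.0658) and Hoxb7 (0.0686) nearest to it, each high in the earlier PNX sample only. The remaining members had Grrp1, Hist1h2bc and Dpcr1 (Twist2), Hpgd, Tmem238 and Cryab (Snai2), Wdr37, Zfp84 and Rassf3 (Zeb1), and Rpl17, Cln8 and Frmd8 (Zeb2). With a prior count of 0.5 in place of 2, Twist1 and Prrx2 each kept only 1 of these 3 genes and the other members kept all 3.

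The next question was what genes around these factors did, and each list is given by its counts in the replicate block fit beside the 3.89% of all genes called higher and 1.23% called lower. Unblocked, the 4 samples gave no call in any list. The closest relatives, 13 genes of the same families, were mostly scarce, with 6 tested and 0 called. Tcf21, a helix-loop-helix factor of lung mesenchyme, was the highest at 42.0 and 22.9 CPM in the sham and 41.7 and 13.6 CPM in the PNX samples (log2 fold change -0.34 ± 0.16, adjusted p = 0.182). Snai3, the third Snail gene, had a log2 fold change of -0.53 ± 0.38 (adjusted p = 0.363). Scx, which pairs with E proteins in tendon cells, gave -0.25 ± 0.34 (adjusted p = 0.646).

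The partners of the Twist proteins were abundant and showed little difference. Of 7 genes for E proteins and Id proteins 0 were called, and their log2 fold changes ran from -0.06 to 0.09. Tcf3, which encodes E2A, was at 384 to 405 CPM in sham and 401 to 443 CPM in PNX (log2 fold change 0.09 ± 0.10, adjusted p = 0.563). Id3, an inhibitor of E proteins, gave -0.06 ± 0.08 (adjusted p = 0.673), and Tcf12 gave -0.05 ± 0.09 (adjusted p = 0.758).

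Among 12 genes for corepressors of the Snail and Zeb factors, 1 was called. Ezh2, the histone H3 lysine 27 methyltransferase, rose from 18.6 and 21.0 CPM in the sham samples to 43.2 and 51.2 CPM in the PNX samples (log2 fold change 1.25 ± 0.09, adjusted p = 0.000115). Ezh2 is also known to follow cell division, and 10 of 10 cell division markers were called higher, from a summed 57.3 to 103 CPM in sham to 438 to 666 CPM in PNX. The part of dividing cells in this result was not tested. Ctbp1, a corepressor bound by ZEB proteins, gave 0.06 ± 0.09 (adjusted p = 0.684), Sin3a -0.08 ± 0.08 (adjusted p = 0.564) and Suz12 0.21 ± 0.10 (adjusted p = 0.179).

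Of the 8 tested genes that govern turnover of these proteins, 0 were called. Btrc, a ubiquitin ligase subunit that binds SNAI1, had the value farthest from 0, -0.32 ± 0.08 (adjusted p = 0.0288), and Fbxo11 gave -0.27 ± 0.08 (adjusted p = 0.0551). Of 10 genes of the TGF-beta pathway, an inducer of the Snail, Zeb and Twist genes in culture, 0 were called. Tgfb3, a ligand, lay at 16.2 and 20.7 CPM (sham) against 25.8 and 42.7 CPM (PNX) and had an adjusted p of 0.00253 with a log2 fold change of 0.85 ± 0.11, under the fold threshold. Tgfb2 gave 0.50 ± 0.10 (adjusted p = 0.0112), Tgfbr3, a coreceptor gene, -0.41 ± 0.08 (adjusted p = 0.0111), and the receptor gene Tgfbr2 0.16 ± 0.10 (adjusted p = 0.284).

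Other factors known from mesenchymal transition did not pass either, with 12 of 14 tested and 0 called. Sox9, a factor of cartilage and lung progenitors, had the largest log2 fold change at 1.05 ± 0.26 (adjusted p = 0.0299), from 0.639 and 0.736 CPM in sham to 1.34 and 1.49 CPM in PNX. Tbx3, at 277 to 416 CPM in sham, gave -0.25 ± 0.10 (adjusted p = 0.117) and Tbx2 -0.09 ± 0.12 (adjusted p = 0.646). A rise in Twist1, Prrx1 and Prrx2 was accordingly not shared by the other listed factors past the thresholds, which does not show that these did not change.

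Of 18 genes known as mesenchymal targets of the factors, 9 were called higher, 0 were called lower and 9 did not pass, with a median log2 fold change of 0.95 beside -0.01 over all genes tested. Tnc, the matrix protein tenascin C, rose from 20.3 and 12.95 CPM in the sham samples to 119 and 139 CPM in the PNX samples (log2 fold change 2.96 ± 0.19, adjusted p = 8.65e-05). Fn1, fibronectin, rose by 1.93 ± 0.19 (adjusted p = 0.00066). Col1a1, a chain of type I collagen, rose by 2.41 ± 0.11 (adjusted p = 2.1e-05), and Sparc, a matrix glycoprotein, by 1.34 ± 0.16 (adjusted p = 0.00155). Cdh2, which encodes N-cadherin, rose from 3.07 and 2.83 CPM to 6.62 and 6.10 CPM (1.11 ± 0.16, adjusted p = 0.00315). Acta2 and Tagln, contractile genes of smooth muscle and myofibroblasts, gave 0.11 ± 0.17 (adjusted p = 0.689) and 0.14 ± 0.14 (adjusted p = 0.521), and Mmp9, a matrix protease, gave -0.08 ± 0.09 (adjusted p = 0.573).

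The epithelial side of the programme was mostly fitted lower, with no gene past both thresholds. Of 13 epithelial targets of the repressors, among them Cdh1 (E-cadherin), 0 were called and 12 were fitted lower, with a median log2 fold change of -0.62. Cdh1 was at 84.7 and 81.9 CPM (sham) against 70.2 and 42.1 CPM (PNX) (-0.60 ± 0.15, adjusted p = 0.0301), and Krt8, a keratin of simple epithelia, gave 0.01 ± 0.09 (adjusted p = 0.969). Of 10 epithelial factors that oppose the transition, 0 were called and all 10 were fitted lower (median -0.69), Grhl2 by -1.11 ± 0.23 (adjusted p = 0.0159) and Ehf by -1.04 ± 0.20 (adjusted p = 0.0116). The epithelial cell markers moved with these genes, with 4 of 10 called lower, Scgb1a1 of club cells by -1.50 ± 0.21 (adjusted p = 0.00297), and 0 of 10 at a count of 0. Their part in the lower epithelial targets was not tested.

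Endothelial genes that the factors are known to act on or that lie near them in pathways showed 1 call among 10. Ppargc1a, a coactivator of mitochondrial genes, lay at 4.30 and 5.65 CPM (sham) against 1.89 and 2.51 CPM (PNX) and fell by 1.18 on the log2 scale (SE 0.17, adjusted p = 0.00371). Pecam1 gave 0.02 ± 0.13 (adjusted p = 0.931), Cdh5, vascular endothelial cadherin, -0.15 ± 0.12 (adjusted p = 0.412), and Nos3 0.55 ± 0.14 (adjusted p = 0.0314). Of the 10 endothelial markers 0 were called, and Tek, the angiopoietin receptor, gave -0.51 ± 0.11 (adjusted p = 0.0192). The lists of endothelial targets and endothelial markers share most of their genes, among them Pecam1, Cdh5 and Tek, so they are not separate results.

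**Figure D4:**
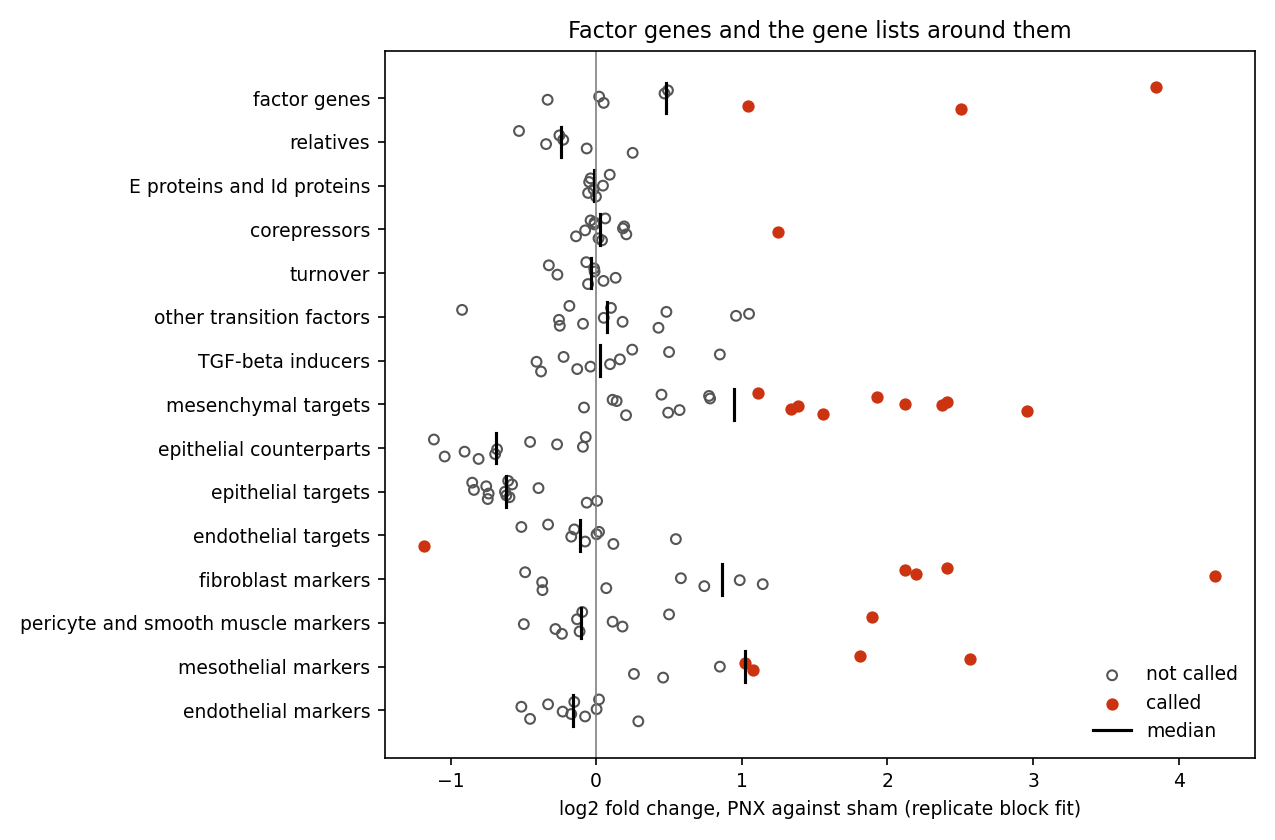
Log2 fold change of PNX against sham (horizontal axis, replicate block fit) for each tested gene of the factor group and of 14 lists around it, filled red where called, with the list median as a bar. Twist1, Prrx2 and Prrx1 are the called factor genes, mesenchymal targets lie to the right (median 0.95), and both epithelial lists lie to the left (medians -0.62 and -0.69).

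Markers of other cells that the isolation could hold were counted beside the 3 called members. Of 12 fibroblast markers 4 were called higher and 0 lower, 9 were fitted higher and 3 lower (median 0.86), and their summed level was 3480 and 3526 CPM in the sham and 5440 and 4986 CPM in the PNX samples. Lum, the collagen-binding lumican, rose by 4.25 ± 0.14 (adjusted p = 1.22e-05), and Col1a2, Col1a1 and Dcn were the others called. Col1a1 and Col1a2 are also in the list of mesenchymal targets. Pdgfra, the receptor that defines many lung fibroblasts, did not rise, at 400 and 321 CPM (sham) against 335 and 194 CPM (PNX) (-0.49 ± 0.13, adjusted p = 0.0326). Npnt, the gene of that list with the highest mean CPM, gave -0.37 ± 0.20 (adjusted p = 0.232). It made up most of the summed level in sham, at 2334 and 2181 CPM, against 2408 and 1264 CPM in the PNX samples. The sums therefore do not show how the other markers of the list moved. No marker of this list was at 0 in every library, and the part of fibroblasts in the levels of Twist1, Prrx1 and Prrx2 was not tested.

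Mesothelial cells, the lining of the pleura, express Wt1 and Msln, and 4 of their 7 tested markers were called higher, Wt1 by 2.57 ± 0.12 (adjusted p = 2.41e-05) and Msln by 1.81 ± 0.10 (adjusted p = 3.97e-05). Their summed level was 261 and 525 CPM (sham) against 450 and 1092 CPM (PNX), so it differed between deposits as well. Of 10 pericyte and smooth muscle markers 1 was called and 6 were fitted lower (median -0.10). The called gene was Rgs5 of pericytes (1.89 ± 0.15, adjusted p = 0.000228), while Pdgfrb gave -0.10 ± 0.15 (adjusted p = 0.707). Their summed level was 421 and 560 CPM (sham) against 530 and 398 CPM (PNX). Of 9 macrophage markers 3 were called higher and 8 were fitted higher, with a summed level of 2418 and 4403 CPM (sham) against 3137 and 4300 CPM (PNX). C1qb, a complement subunit made by macrophages, rose by 2.61 ± 0.17 (adjusted p = 7.94e-05), while Lyz2, the lysozyme of myeloid cells, gave -0.01 ± 0.15 (adjusted p = 0.980). The macrophage sums were mostly Lyz2, at 2007 and 3518 CPM (sham) and 2271 and 3080 CPM (PNX). Of 7 tested adipocyte markers 4 were called higher, and the list summed to 44.8 and 69.7 CPM (sham) against 73.6 and 69.3 CPM (PNX). The nearly equal sums of the later deposit were mostly Cidec, not called, at 55.05 CPM in sham and 39.4 CPM in PNX. In that deposit the 4 called genes were higher in PNX: Adipoq (0 counts in sham, 17 in PNX), Cfd (2, 32), Fabp4 (479, 784) and Pck1 (0, 19). Of the 4, Adipoq and Pck1 lay under the minimum of 0.115 CPM in both sham samples, so these 2 entered the test only through PNX. Of 9 lymphocyte markers 0 were called, but all 9 were fitted lower (median -0.91), 6 of them with an adjusted p under 0.01. Their summed level was 103 and 136 CPM (sham) against 58.2 and 73.9 CPM (PNX). The part of these cells in the factor genes' levels was not tested.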

How the data were processed

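The authors sequenced RNA of CD31-selected mouse lung cells and deposited, per library, the count, FPKM and TPM of each of 33068 RefSeq transcripts on mm10 (the submitters' processing notes name STAR; the counting rule is not given in the sources used here). Only the deposited counts were tested, TPM served for levels between genes, and FPKM was not used. The members and gene lists were chosen with earlier results of these data known.

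Counts were summed per symbol and tested in R 4.3.3 with edgeR 4.0.16 (TMM, filterByExpr, glmQLFit, glmQLFTest). DESeq2 1.42.0 and limma 3.58.1 (voom), other scalings, filters, thresholds, transcripts and left-out libraries were alternatives. The fits were tested on simulated data. Standard errors are the log2 fold change divided by the square root of F. Intervals are exact Clopper-Pearson at 95% on the PNX share, for counting error only. Samples were grouped by the labels, which also pair the groups by deposit: over 11659 genes, which are not independent, the difference between deposits had a Pearson's r of 0.785 and a Spearman's rho of 0.783 between the groups. The labels do not say that libraries are separate cultures or animals beyond the pools, so unblocked p-values of the 4 samples measure the spread between samples. Blocked p-values measure only the spread left once the difference between deposits is removed.

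Genes named are all members and, per list, genes drawn by rule (not all are printed, and 1 gene near Prrx1 in pattern is not reported here): the 2 with the highest mean CPM and the 2 with the largest absolute log2 fold change; Cdh2, Acta2, Tagln, Mmp9, Pdgfra, Dcn and Pck1 were added after their values were seen. Positions, overlaps and 3′ regions are from GENCODE vM21 on GRCm38; sequences and promoters are from RefSeq on GRCm38.p6, which gave windows for 6 members here.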

Additional observations from a re-analysis of the deposited data

Results flagged for a closer look

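In 3 members PNX replicates 1 and 2 both lay above sham replicates 1 and 2 in CPM, while PNX replicate 3 lay below sham replicate 3, and this difference between the deposits was not tested. Snai1 had a PNX to sham ratio of 2.00 in the earlier deposit and 0.853 in the later. Snai2 had ratios of 1.03 and 0.990, both within counting error of 1. Zeb2 had ratios of 1.06 and 1.02 on the scaling of the 4 samples, where the later ratio stays above 1, and 257 CPM in sham replicate 3 against 256 CPM in PNX replicate 3 on that of the 6 libraries.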

How the results depend on the processing

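In the unblocked 4-sample fit edgeR gave 0 calls over all genes and 0 members (2076 genes had an unadjusted p under 0.05), and this stayed so for limma-voom, the other scalings, no filter, an adjusted p under 0.05 and the transcript of the highest count. With at least 10 counts in every library Twist1, Twist2 and Prrx2 could not be tested. The replicate block, by deposit, moved the count to 849 genes and 3 members, with Twist1 at a log2 fold change of 3.84; at an adjusted p under 0.05 the block gave 1186 genes and 3 members (Twist1 3.84). Other blocked fits gave 813 genes and 3 members by DESeq2 (Twist1 4.06), 921 and 2 by limma-voom (3.83), 624 and 3 with DESeq2's size factors (3.85), 646 and 3 with upper-quartile scaling (3.85), 629 and 3 with library size alone (3.87), and 727 and 3 with the transcript of the highest count (3.85). Blocked calls of all genes split into 645 higher and 204 lower, but 540 and 84, 548 and 98, and 550 and 79 under the 3 other scalings. Without the block, DESeq2 called 587 genes and 3 members on 4 samples (Twist1 4.01). As 6 separate libraries, edgeR called 409 and 3 without a block (3.85) and 920 and 2 with the replicate number as a block (3.80), and DESeq2 called 927 and 2 (3.90). Replicates 1 and 2 alone gave 1203 and 3 (3.60). The causes of these shifts were not tested.

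Leaving out each library of the 4-sample fit gave 0 to 2 genes, 0 members and a Twist1 log2 fold change of 3.58 to 4.75. Of the 6 separate libraries, leaving out sham replicate 1, sham replicate 2 or PNX replicate 1 gave 0 genes and 0 members, PNX replicate 2 gave 49 and 0, sham replicate 3 gave 517 and 2 (Twist1 3.70), and PNX replicate 3 gave 332 and 1. In the blocked fit the count was 671 and 2 without sham replicate 1 (4.71), 668 and 3 without sham replicate 2 (3.50), 485 and 2 without PNX replicate 1 (3.98), and 863 and 3 without PNX replicate 2 (3.73). A group left with 1 sample was assumed to vary like the other.

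Twist1 lay above 0 in all 39 settings that tested it (3.50 to 4.75), Prrx2 in all 39 (2.38 to 2.70) and Prrx1 in all 40 (0.91 to 1.15), and Zeb1 lay below 0 in all 40 (-0.47 to -0.18). Zeb2 changed sign without PNX replicate 3 (-0.044), without sham replicates 1 and 2 (-0.083) and, as 6 libraries, without sham replicate 2 (-0.0066). Without PNX replicates 1 and 2 the values were -0.061 for Twist2, -0.095 for Snai1 and -0.41 for Snai2. Snai2 was also below 0 without sham replicate 3 (-0.26) and, as 6 libraries, without sham replicate 3 (-0.13), PNX replicate 1 (-0.051) or PNX replicate 2 (-0.0998). Over the 4-sample fits without a single library Snai2 ran from -0.26 to 0.35 and Zeb2 from -0.044 to 0.19. The blocked fit rests on 4 samples in pairs, so its adjusted p-values depend on few degrees of freedom, and depth limits Twist1 (10 sham counts) and Twist2 (9 and 11 counts in the later deposit).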
